A study of Rattus norvegicus with 45 samples.

Results

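Livers of rats exposed to triadimefon for 24 h were compared with livers of control rats of the same time, on 10 of the 45 arrays of the series. The arrays were chosen by their titles, 5 for triadimefon and 5 for control, and every probe set was taken except the Affymetrix controls, which left 31042 of 31099. The animals were adult male Sprague-Dawley rats, 10 weeks old, dosed by gavage. Triadimefon was given at 175 mg/kg/day. The control rats are labelled only as controls, and the vehicle is not named in the sources used here. Groups used beside these were rats given myclobutanil at 225 mg/kg/day for 24 h, triadimefon rats and controls at 6 h, and triadimefon rats and controls at 14 days, with 5 arrays each. The doses are stated for the series and not for each sample. The labels differ on numbers, since the series text counts 15 livers and the labelling protocol 3 rats per group, whereas the titles give 5 arrays per group in 9 groups. The titles were followed. The series text calls the replicates biological and the labels say no more of their origin, so p-values measure the spread between these arrays.

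Triadimefon and myclobutanil are triazole fungicides, which act in fungi on the cytochrome P450 that removes a methyl group from lanosterol, the enzyme whose mammalian counterpart is Cyp51. In rodent liver, foreign compounds of this kind are sensed by the nuclear receptors CAR and PXR, which turn on cytochromes P450, conjugating enzymes, transporters and the haem synthesis that new P450 needs. Hepatocytes also make cholesterol under the control of the SREBP-2 transcription factor, turn part of it into bile acids through Cyp7a1 and Cyp8b1, and make fatty acids under SREBP-1, whose gene is Srebf1.

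All values are scores as the authors deposited them. They behave as logarithms, but their base is not given in the sources used here, and each array is centred near 0. If the base were 2, 1 score unit would be 2-fold. Where a gene had several probe sets, the brightest over all arrays stands for it, and it is called where limma's adjusted p is under 0.05. Markers of hepatocytes were high in all 10 arrays, with a mean over the 11 measured of 3.60 to 4.03 in triadimefon livers and 3.72 to 4.50 in control livers.

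3 arrays stood apart. Control replicate 2 was brighter than the others, since the 305 probe sets with a mean score above 3 averaged 4.11 on it. The same mean was 3.28 to 3.59 on the 5 triadimefon arrays and 3.39 to 3.63 on the other 4 controls. Over the groups this mean was 3.45 for triadimefon and 3.62 for control, a difference of -0.172 that an exact two-sided permutation test did not call (p = 0.286), and without control replicate 2 the difference was -0.0494 (exact p = 0.556). Each count below is for the deposited scores unless quantile normalization is named, which gives all 45 arrays the same distribution.

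Triadimefon replicate 2 carried pancreatic enzyme RNA. Amy2a3, which encodes pancreatic amylase, had a score of 2.57 on that array, between -0.45 and -0.29 on the other 4 triadimefon arrays, and between -0.44 and -0.31 on the controls. All 7 measured pancreas markers were highest on that array, with a sum of 11.5 against -0.369 to 0.194 on the other triadimefon arrays and -0.13 to 0.0465 on the controls. Triadimefon replicate 5 lay far from the other 4 triadimefon arrays in 378 of 14218 genes (2.66%), against 55 to 179 genes for each of the other 4, and by the same measure control replicate 2 lay far from the other controls in 744 genes (5.23%).

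Over all probe sets limma called 694 higher in triadimefon livers (2.24%) and 1784 lower (5.75%). A fit to the 10 arrays alone, in place of all 45, called 133 higher and 358 lower. In that fit 36 of the 71 called genes named by the rule lost their call against control, with their direction kept: Por, Lss, Cyp51, Scd, Acly, Acss2, Eci1, Ech1, Acot4, Cyp4a3, Ppp1r3b, Gbe1, Ugp2, Bhmt, Gnmt, Prodh2, Glul, Ghr, Car3, Nrep, Stmn1, Mcm4, Mcm6, Pcna, Mdm2, Dnajb1, Chordc1, Hsph1, Cd14, Ifit1, Mx2, Isg15, Sdhb, Ndufs3, Ephx1 and Cry1. After quantile normalization 1381 were higher (4.45%) and 1421 lower (4.58%). Of the calls on deposited values, 96.5% of the higher and 69.8% of the lower were called in the same direction after quantile normalization, and 0 were called in opposite directions. By gene, 370 of 14218 were higher (2.6%) and 1182 lower (8.31%), and after quantile normalization 838 were higher (5.89%) and 901 lower (6.34%). These shares of all genes are the background for every count of list members against control at 24 h below. Without control replicate 2 the deposited scores called 1.79% of genes higher and 3.19% lower, without triadimefon replicate 5 1.91% and 7.98%, and without triadimefon replicate 2 2.32% and 6.5%. After quantile normalization the shares were 4.11% and 4.5% without control replicate 2, and 4.68% and 4.55% without triadimefon replicate 5. The 5 triadimefon scores lay wholly above the 5 controls in 1.86% of genes and wholly below them in 5.23%. The median difference over all genes was -0.011 as deposited and 0.002 after quantile normalization. Most differences were small, with a median size of 0.157 among called probe sets, and 8 called probe sets were above 1 and 10 below -1.

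Drug metabolism genes were among the largest increases. Of 28 measured CAR and PXR targets and receptors, 14 were higher and 1 lower in triadimefon livers, with a median difference of 0.278, against 2.6% of all genes higher. After quantile normalization 19 were higher and 1 lower, with a median of 0.361. The single lower member was Thrsp, a lipogenesis gene described with the fatty acid genes. The probe set shared by Cyp2b1 and Cyp2b2 (1371076_at), the phenobarbital-type P450s, had scores of 3.95, 4.48, 4.31, 3.95 and 4.54 in triadimefon livers and 1.28, 2.21, 1.77, 1.74 and 1.45 in control livers. Every triadimefon array was above every control, and the difference of 2.56 ± 0.21 (SE) had an adjusted p of 2e-10. Cyp3a9 (1370387_at) had scores of 2.43, 2.94, 2.78, 2.76 and 2.74 in triadimefon livers and 1.65, 1.30, 2.09, 0.88 and 1.75 in control livers. It rose by 1.19 ± 0.23 (adjusted p = 0.00083), with no overlap between the groups. Cyp3a23-3a1, a PXR target, rose by 0.71 ± 0.15 (adjusted p = 0.0017).

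Alas1 (1367982_at), the first enzyme of haem synthesis, had scores of 2.53, 3.29, 3.20, 2.93 and 3.66 in triadimefon livers and 1.71, 2.17, 1.92, 2.12 and 2.14 in control livers. The difference was 1.11 ± 0.17 (adjusted p = 4.8e-05), and the lowest triadimefon liver was above the highest control. Por (1387109_at), the reductase that passes electrons to P450s, had scores of 1.79, 1.89, 2.15, 1.97 and 3.06 in triadimefon livers and 1.11, 1.38, 1.21, 1.21 and 1.33 in control livers. It rose by 0.92 ± 0.17 (adjusted p = 0.00047), and replicate 5 was far above the other 4 triadimefon arrays. Of the later steps of haem synthesis, Ppox fell by 0.27 (adjusted p = 0.00015) and Urod by 0.22 (adjusted p = 0.0013). In the whole haem list 2 of 17 members were higher, Alas1 and Por, and 3 were lower, against 2.6% and 8.31% of all genes. After quantile normalization 5 were higher and 3 lower, against 5.89% and 6.34% of all genes.

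Aldehyde, ester and conjugation enzymes changed in both directions. Aldh1a1 (1387022_at), a retinaldehyde dehydrogenase, had scores of 2.40, 2.33, 2.55, 2.04 and 3.05 in triadimefon livers and 1.04, 1.65, 1.5, 1.33 and 0.99 in control livers. It rose by 1.17 ± 0.20 (adjusted p = 0.00022) without overlap. Ces2c, a carboxylesterase, rose by 1.05 ± 0.10 (adjusted p = 2e-09) on control scores that ran only between 0.75 and 0.82. Ugt2b1, a glucuronosyltransferase, rose by 0.85 ± 0.19 (adjusted p = 0.0027), and Inmt, an N-methyltransferase, by 1.02 ± 0.25 (adjusted p = 0.0069). Fmo1 (1387053_at), a flavin monooxygenase, went the other way, with scores of 0.57, 0.93, 0.99, 1.01 and 1.03 in triadimefon livers and 1.85, 2.17, 1.89, 1.55 and 1.87 in control livers. It fell by 0.96 (SE 0.11, adjusted p = 4e-07). Over the 42 measured conjugation genes 5 were higher and 7 lower, and after quantile normalization 11 were higher and 6 lower. Among 36 other P450s 1 was higher and 5 lower, against 2.6% and 8.31% of all genes, and the lowest differences among the called were those of Cyp4f6 (-0.48, adjusted p = 5.5e-05) and Cyp2f4 (-0.44, adjusted p = 0.00039). After quantile normalization 3 were higher and 6 lower. As deposited 3 were lower without control replicate 2, 3 or 5 or triadimefon replicate 1 or 5, and 0 were higher without triadimefon replicate 2 or 5. Cyp2c11, the main P450 of male rat liver, differed by -0.12 as deposited (adjusted p = 0.75) and 0.04 after quantile normalization. Cyp1a1, an aryl hydrocarbon receptor target, lay between -0.05 and 0.07 in triadimefon livers and between -0.20 and -0.11 in control livers, and differed by 0.14 (adjusted p = 0.22).

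More transporters were called higher than lower. Slco1a4 (1387093_at), an organic anion uptake carrier, had scores of 3.26, 3.48, 3.42, 3.30 and 3.50 in triadimefon livers and 2.58, 2.65, 2.58, 2.54 and 2.34 in control livers. It rose by 0.86 ± 0.09 (adjusted p = 1.3e-07). Abcb1a, a drug efflux pump, rose by 0.78 ± 0.09 (adjusted p = 4e-07). Slc22a8, an organic anion carrier, fell by 0.85 (SE 0.21, adjusted p = 0.0067), and no triadimefon array reached the controls. Of 22 transporters 6 were higher and 3 lower, against 2.6% and 8.31% of all genes. After quantile normalization 10 were higher and 1 lower, against 5.89% and 6.34% of all genes, so the lower count was not above that share. With 1 array left out the deposited counts ran from 4 to 6 higher and from 1 to 4 lower. They were 5 higher and 1 lower without control replicate 2, and 4 higher and 1 lower without triadimefon replicate 5. Only 1 was lower also without control replicate 3 or triadimefon replicate 1, 3 or 4.

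**Figure D1:**
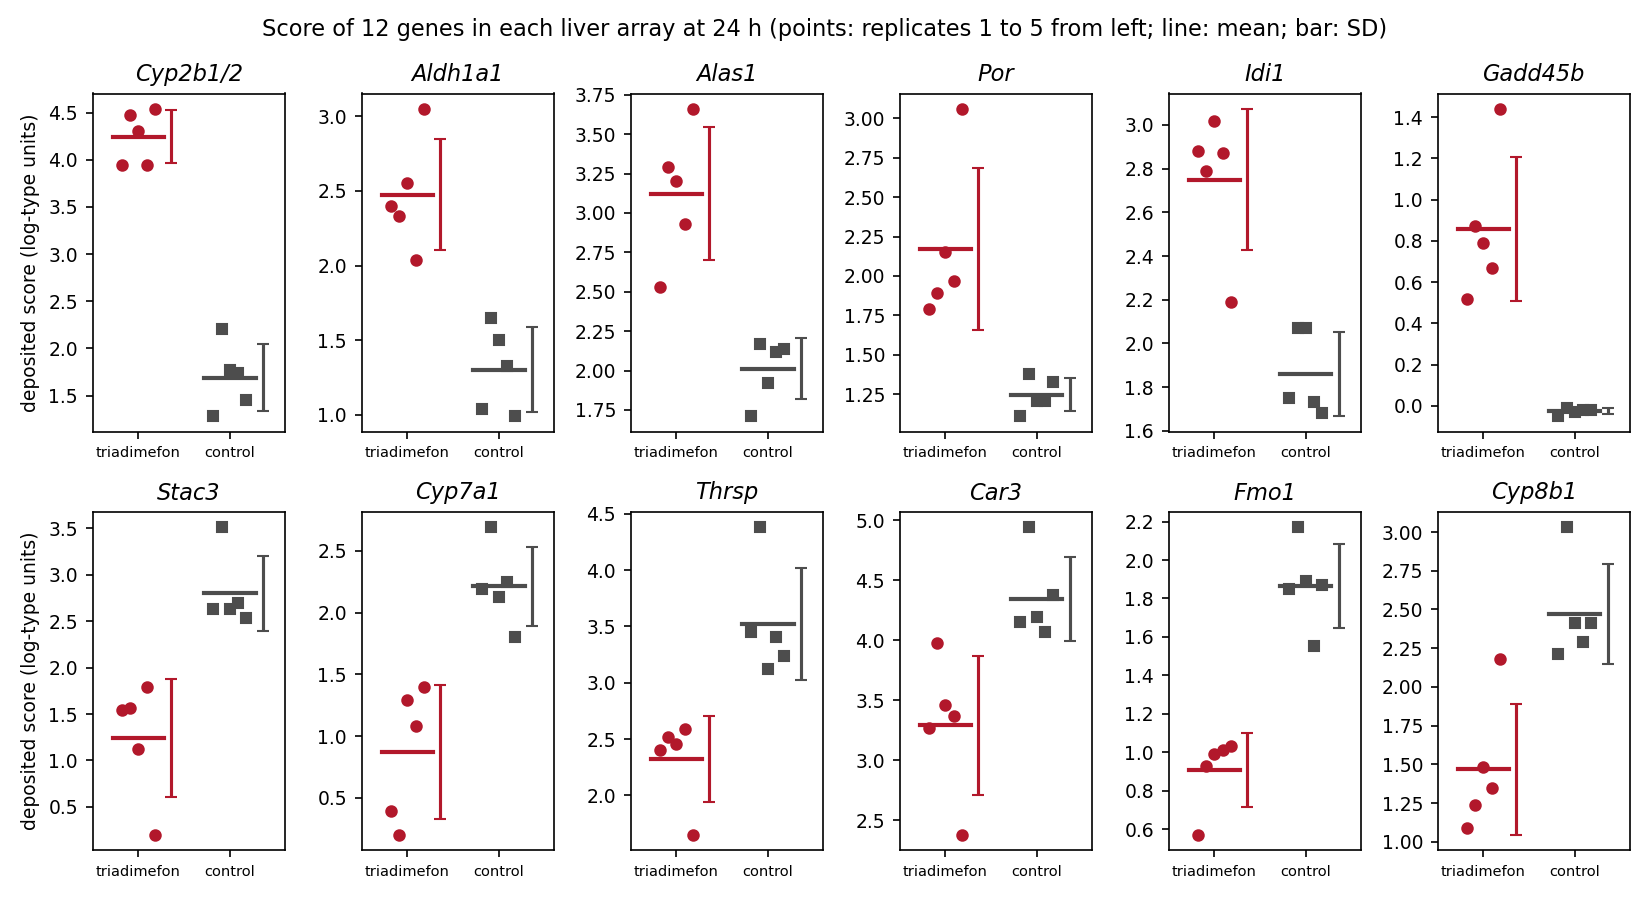
Deposited score of 12 genes on each 24 h array, with 5 triadimefon arrays (red circles) left of 5 control arrays (grey squares), replicates 1 to 5 from left to right, the group mean as a line and the SD as a bar. In all 12 genes the triadimefon arrays lie wholly above or wholly below the controls, and triadimefon replicate 5 is the highest or lowest of its group in each.

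Of 22 measured sterol synthesis and uptake genes, 14 were higher and 0 lower in triadimefon livers. The median difference over the 22 was 0.293, with 3 of the differences negative, and after quantile normalization 17 were higher and 0 lower, with a median of 0.414. The called members run from the first condensation to the last reductions: Acat2, Mvk, Mvd, Idi1, Fdft1, Sqle, Lss, Cyp51, Tm7sf2, Msmo1, Hsd17b7, Ebp and Sc5d, with the regulator Srebf2. Insig1, which holds SREBP in the endoplasmic reticulum, differed by -0.12 (adjusted p = 0.75) and by 0.04 after quantile normalization. Its relative Insig2 differed by 0.32 (adjusted p = 0.14) and was called after quantile normalization (0.47, adjusted p = 0.00093).

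The 250 bases upstream of the annotated start of 3 of these genes, from RefSeq on build GRCr8, are shown as examples. Their genes were among those called higher, and all 3 regions hold the word marked here, which not every called gene does. Capitals mark CCAAT or its reverse complement ATTGG, the word bound by NF-Y, a factor known to work beside SREBP at sterol genes. Idi1 lies on the minus strand at chr17:66547525-66547774, Msmo1 on the plus strand at chr16:29746863-29747112, and Lss on the minus strand at chr20:12118231-12118480.
Idi1: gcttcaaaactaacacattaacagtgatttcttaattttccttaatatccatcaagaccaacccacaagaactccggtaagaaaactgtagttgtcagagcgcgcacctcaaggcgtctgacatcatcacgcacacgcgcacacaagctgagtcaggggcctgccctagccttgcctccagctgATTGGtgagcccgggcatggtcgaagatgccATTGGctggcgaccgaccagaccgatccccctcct
Msmo1: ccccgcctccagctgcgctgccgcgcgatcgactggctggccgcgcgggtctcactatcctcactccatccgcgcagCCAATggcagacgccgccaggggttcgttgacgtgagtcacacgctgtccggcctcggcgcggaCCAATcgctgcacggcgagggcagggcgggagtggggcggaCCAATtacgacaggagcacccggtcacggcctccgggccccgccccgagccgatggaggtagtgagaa
Lss: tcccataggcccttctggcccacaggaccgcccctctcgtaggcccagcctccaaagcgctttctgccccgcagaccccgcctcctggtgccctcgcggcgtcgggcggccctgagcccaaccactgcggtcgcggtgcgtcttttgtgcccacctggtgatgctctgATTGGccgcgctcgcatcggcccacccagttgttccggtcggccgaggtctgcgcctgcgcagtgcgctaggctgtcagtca

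The table of upstream sequences matched 18 of the 22 sterol genes by symbol. CCAAT was present on either strand in 14 of the 18 (77.8%), against 9416 of all 27457 upstream regions of that length (34.3%) and 32 of the 50 matched DNA replication and mitosis genes (64%). It was found 2 times before Idi1, 3 times before Msmo1 and 1 time before Lss. Before Cyp51 and Acat2, which were also called higher, it was found 0 times. It was present before Fdps, Nsdhl, Insig1 and Insig2, which were not called as deposited. The word TCACNCCAC, a spelling of the sterol regulatory element, was in 0 of the 18 and in 0.976% of all regions. These words were chosen with the results known, were searched on both strands, and may overlap each other. A match describes these letters only.

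Idi1 (1368878_at), the isopentenyl diphosphate isomerase, had scores of 2.88, 2.79, 3.02, 2.87 and 2.19 in triadimefon livers and 1.75, 2.07, 2.07, 1.73 and 1.68 in control livers. It rose by 0.89 ± 0.14 (adjusted p = 8.7e-05). Sqle (1387017_at), squalene epoxidase, had scores of 1.70, 1.59, 1.64, 1.67 and 1.14 in triadimefon livers and 0.70, 0.76, 0.78, 0.71 and 0.68 in control livers. The difference was 0.82 ± 0.11 (adjusted p = 2.5e-06), and in both genes replicate 5 was the lowest triadimefon array while still above every control. Msmo1, a sterol methyl oxidase, rose by 0.80 ± 0.11 (adjusted p = 1.6e-05), and Lss, lanosterol synthase, by 0.55 ± 0.13 (adjusted p = 0.0064). In both, replicate 5 lay below the highest control. Cyp51 (1367979_s_at) had scores of 3.23, 3.41, 3.36, 3.23 and 3.10 in triadimefon livers and 2.70, 3.21, 2.82, 2.55 and 2.68 in control livers. It rose by 0.47 ± 0.10 (adjusted p = 0.0027), and only control replicate 2 reached the triadimefon range.

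Replicate 5 set the lower end of the whole sterol list. The mean score of the 22 members was 2.15, 2.17, 2.19, 2.16 and 1.85 in triadimefon livers and 1.71, 2.04, 1.76, 1.67 and 1.68 in control livers. After quantile normalization these means were 2.33, 2.17, 2.23, 2.24 and 1.80 in triadimefon livers and 1.74, 1.73, 1.71, 1.74 and 1.62 in control livers, and the groups no longer overlapped. Without replicate 5 the count stayed at 14 higher, without triadimefon replicate 2 it was 13, and without control replicate 2 it was 15. Over all 10 arrays left out in turn it ran from 11 to 15.

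**Figure D2:**
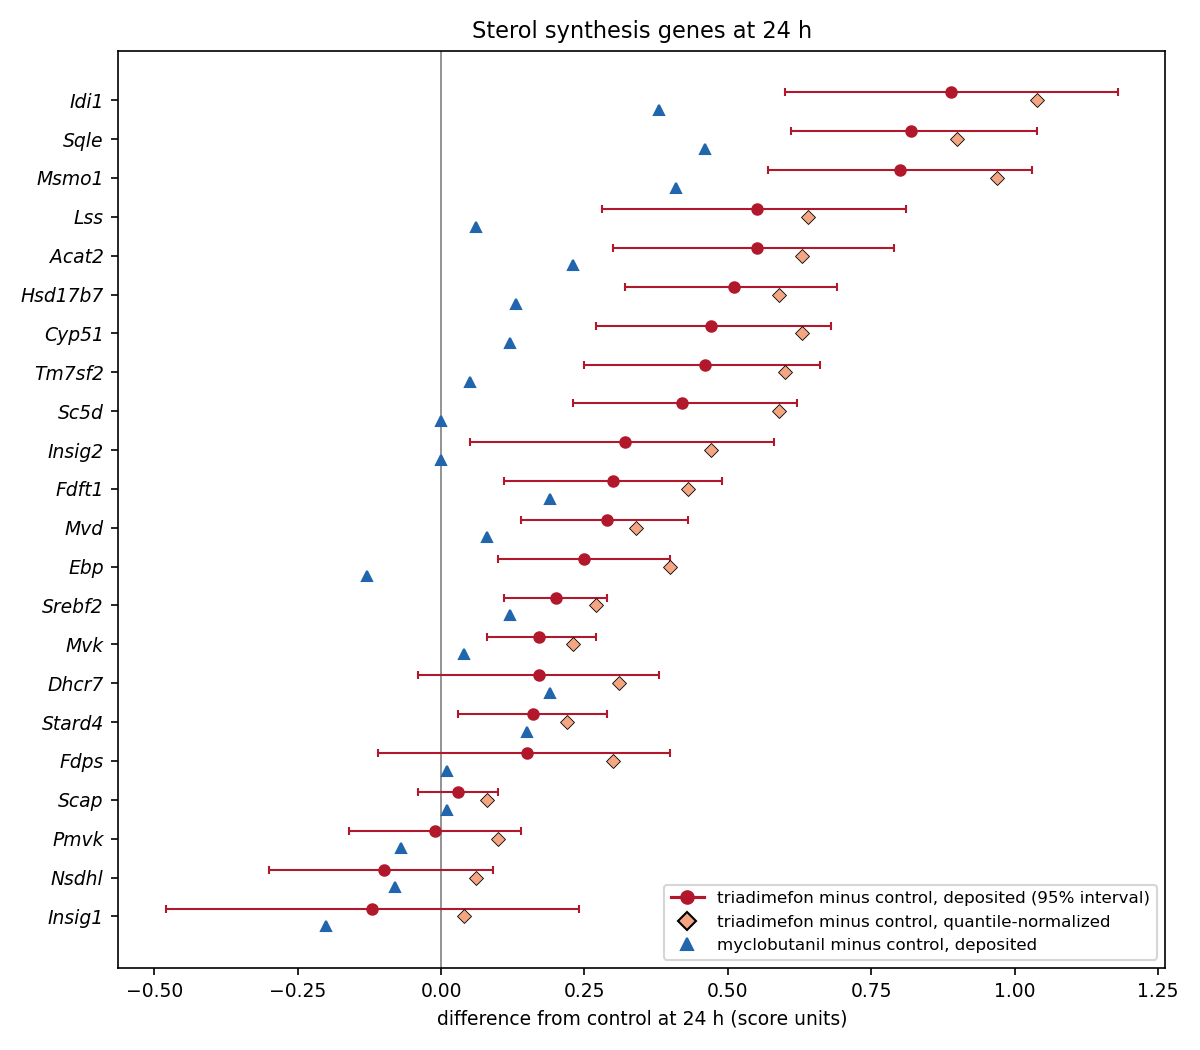
Differences from control at 24 h for the 22 sterol genes, in score units, with triadimefon as deposited (red, 95% interval), triadimefon after quantile normalization (orange diamonds) and myclobutanil as deposited (blue triangles). Idi1, Sqle and Msmo1 lie at 0.80 to 0.89 for triadimefon and at 0.38 to 0.46 for myclobutanil, and the 2 compounds share the same 5 controls.

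Of 14 measured bile acid genes 2 were lower and 0 higher in triadimefon livers, against 8.31% and 2.6% of all genes. Cyp7a1 (1368458_at), the rate-limiting enzyme, had scores of 0.39, 0.20, 1.29, 1.08 and 1.40 in triadimefon livers and 2.19, 2.69, 2.13, 2.25 and 1.80 in control livers. It fell by 1.34 (SE 0.27, adjusted p = 0.0014), and the highest triadimefon liver was below the lowest control. Cyp8b1 (1368435_at), the sterol hydroxylase, had scores of 1.09, 1.24, 1.48, 1.35 and 2.18 in triadimefon livers and 2.21, 3.03, 2.41, 2.29 and 2.41 in control livers. The difference was -1.0 ± 0.15 (adjusted p = 3.4e-05), with replicate 5 just below the lowest control. Abcg5, which pairs with Abcg8 to pump sterols into bile, rose by 0.72 ± 0.16 (adjusted p = 0.0035), and Abcg8 differed by 0.38 (adjusted p = 0.083).

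Of 27 measured fatty acid synthesis genes, 7 were lower and 1 higher, with a median difference of -0.213, and after quantile normalization 6 were lower and 2 higher, with a median of -0.113. Without control replicate 2 the deposited counts were 2 lower and 2 higher, and without triadimefon replicate 1 they were 3 lower and 1 higher. After quantile normalization 4 to 6 were lower with 1 array left out. Thrsp (1370150_a_at), a lipogenic nuclear protein, had scores of 2.40, 2.52, 2.46, 2.59 and 1.65 in triadimefon livers and 3.45, 4.38, 3.12, 3.41 and 3.24 in control livers. It fell by 1.20 (SE 0.23, adjusted p = 0.00089), with no overlap. Srebf1 (1388426_at) had scores of 1.66, 1.58, 1.71, 1.46 and 0.93 in triadimefon livers and 2.14, 2.75, 2.24, 2.23 and 2.21 in control livers. It fell by 0.85 (SE 0.14, adjusted p = 0.00011), again without overlap. Acly, which makes cytosolic acetyl-CoA, fell by 0.68 (adjusted p = 0.015) and lost its call without control replicate 2 or triadimefon replicate 5. Scd, the stearoyl-CoA desaturase, fell by 1.09 (adjusted p = 0.027) and lost its call without control replicate 2 or any of triadimefon replicates 1, 3 and 5. Fasn, the fatty acid synthase itself, differed by -0.21 (adjusted p = 0.58). The higher member was Acss2, which makes acetyl-CoA from acetate and is also an SREBP target, with a difference of 0.44 ± 0.09 (adjusted p = 0.0017).

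Of 42 measured fatty acid oxidation genes, 8 were higher and 0 lower, with a median of 0.015, and after quantile normalization 15 were higher and 1 lower, with a median of 0.116. Without triadimefon replicate 5 the counts were 3 higher and 1 lower as deposited, and 10 higher and 1 lower after quantile normalization. Without triadimefon replicate 2 5 were higher as deposited, and over all 10 arrays left out the count ran from 3 to 10, with 3 lower without control replicate 4. Eci1 (1367659_s_at), an enoyl-CoA isomerase, had scores of 2.30, 2.47, 2.64, 2.38 and 3.30 in triadimefon livers and 1.77, 2.33, 2.23, 1.93 and 2.00 in control livers. It rose by 0.57 ± 0.13 (adjusted p = 0.0045), and replicate 5 was the highest of the 10. The other probe set of Eci1 was not called. Ech1, a partner enzyme, had scores of 1.86, 2.01, 2.05, 2.00 and 3.07 in triadimefon livers and 1.57, 1.92, 1.80, 1.71 and 1.67 in control livers. It rose by 0.46 ± 0.13 (adjusted p = 0.017), a call lost without replicate 5. Cyp4a3, a fatty acid omega-hydroxylase and PPAR-alpha target, rose by 0.55 ± 0.15 (adjusted p = 0.016) and lost its call without triadimefon replicate 2 or 5, though after quantile normalization it was kept without either. Acot4, an acyl-CoA thioesterase, rose by 0.52 ± 0.13 (adjusted p = 0.007).

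Of 26 glycolysis, gluconeogenesis and glycogen genes, 10 were lower and 1 higher, with a median of -0.272, and after quantile normalization 11 were lower and 1 higher, with a median of -0.136. Without control replicate 2 the lower counts were 6 and 7. Pklr (1368651_at), the liver pyruvate kinase, had scores of 1.47, 1.60, 1.5, 1.78 and 1.06 in triadimefon livers and 2.41, 2.74, 2.15, 2.37 and 2.32 in control livers. It fell by 0.92 (SE 0.14, adjusted p = 5.3e-05). Gbe1, the glycogen branching enzyme, fell by 0.52 (adjusted p = 0.0047), and Ppp1r3b, which targets a phosphatase to glycogen, by 0.54 (adjusted p = 0.014, lost without control replicate 2). Pck1, the rate-limiting enzyme of gluconeogenesis, differed by -0.19 (adjusted p = 0.58). Of 38 urea cycle and amino acid genes 11 were lower and 0 higher as deposited, with 3 lower without control replicate 2, 6 without triadimefon replicate 1 and 7 without control replicate 5. After quantile normalization 8 were lower, and 7 to 9 with 1 array left out. Gldc, of the glycine cleavage system, fell by 0.47 (adjusted p = 0.0005) and Bhmt, which remethylates homocysteine, by 0.66 (adjusted p = 0.011, lost without control replicate 2). Glul, the pericentral glutamine synthetase, fell by 0.50 (adjusted p = 0.0061).

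All 47 respiratory chain subunits had a negative difference as deposited, with a median of -0.204, and 14 were called lower. Without control replicate 2 only 2 were called, 4 without triadimefon replicate 1, and 22 without control replicate 4. After quantile normalization 15 were lower, with the median at -0.066, and the count with 1 array left out ran from 9 without triadimefon replicate 5 and 10 without control replicate 1 to 17 without control replicate 2 or 3. Sdhb, of complex II, fell by 0.35 as deposited (adjusted p = 0.0092, lost without control replicate 2) and by 0.21 after quantile normalization (adjusted p = 2.3e-07). Of 39 proteasome subunits 0 were higher and 1 lower as deposited (median 0.017), and 26 were higher and 0 lower after quantile normalization (median 0.13). The higher calls of the proteasome stand only on the quantile-normalized scale.

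Among hormone-related genes, 5 of 17 steroid clearance genes were lower and 0 higher, and after quantile normalization 5 were lower and 1 higher. Without control replicate 2 the deposited count was 3 lower. Hsd11b1 (1386953_at), which regenerates active glucocorticoid, had scores of 2.60, 3.18, 2.68, 2.47 and 2.42 in triadimefon livers and 3.33, 3.87, 3.29, 3.37 and 3.59 in control livers. It fell by 0.82 (SE 0.16, adjusted p = 0.0007), without overlap. Nr3c1, the glucocorticoid receptor, fell by 0.33 (adjusted p = 0.0027). Igfals, the carrier partner of IGF-1, fell by 0.60 (adjusted p = 0.00023), and Ghr, the growth hormone receptor, by 0.34 (adjusted p = 0.025, lost without control replicate 2 or triadimefon replicate 1 or 2). Igf1 differed by -0.26 (adjusted p = 0.31) and was called after quantile normalization at -0.15 (adjusted p = 0.00084). Of 22 growth hormone and IGF genes 3 were lower and 1 higher, against 8.31% and 2.6% of all genes. Without control replicate 2 the counts were 1 lower and 0 higher. After quantile normalization 4 were lower and 1 higher, against 6.34% and 5.89%. Of 18 glucocorticoid and metallothionein genes 2 were lower and 0 higher on both scales.

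Stac3 (1395403_at), best known from excitation and contraction coupling in muscle, had the lowest difference of the genes named here. It had scores of 1.54, 1.57, 1.12, 1.79 and 0.20 in triadimefon livers and 2.63, 3.51, 2.63, 2.70 and 2.53 in control livers, and it fell by 1.55 (SE 0.25, adjusted p = 7.8e-05). Car3, a carbonic anhydrase abundant in male rat liver, fell by 1.05 (SE 0.24, adjusted p = 0.0038). Nrep fell by 0.89 (SE 0.17, adjusted p = 0.00055), with replicate 5 at 0.53 and the other 4 triadimefon arrays between 1.77 and 1.96. Tsc22d1, a leucine zipper regulator, fell by 1.13 (SE 0.16, adjusted p = 8.4e-06) on its brightest probe set, but its 3 other probe sets were not called. Cry1, a clock repressor, fell by 0.36 (adjusted p = 0.0021), and Cry2, a related repressor, by 0.16 (adjusted p = 0.029). These 2 of 20 clock genes were called lower and 0 higher, against 8.31% of all genes lower. Of the 20, 1 was lower after quantile normalization, and 1 as deposited without control replicate 2 or 3 or triadimefon replicate 1, 2 or 4.

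Of 59 DNA replication and mitosis genes 18 were higher and 0 lower, with a median difference of 0.13 and positive differences in 56, and after quantile normalization 21 were higher and 0 lower. The mean score of the list was 0.44, 0.11, 0.34, 0.39 and 0.25 in triadimefon livers and 0.11, 0.20, 0.09, 0.12 and 0.28 in control livers, so triadimefon replicate 2, the array with pancreatic RNA, and replicate 5 lay within the control range. With 1 array left out the deposited count ran from 7 without triadimefon replicate 1 to 37 without triadimefon replicate 2. It was 10 without control replicate 3, 11 without control replicate 1, 14 without control replicate 2, 12 without triadimefon replicate 3 or 4 and 26 without control replicate 5. After quantile normalization the range was 10 to 40, with the same arrays at its ends. Ccnd1 (1371643_at), cyclin D1, had scores of 1.43, 1.36, 1.09, 1.41 and 1.58 in triadimefon livers and 0.78, 1.0, 0.72, 0.94 and 0.77 in control livers. It rose by 0.53 ± 0.09 (adjusted p = 9e-05), with no overlap. Mcm4, of the replicative helicase, had scores of 0.72, 0.12, 0.38, 0.53 and 0.10 in triadimefon livers and -0.04, 0.09, 0.00, -0.06 and 0.09 in control livers. It rose by 0.35 ± 0.07 (adjusted p = 0.0018). Cdk1 and Mki67, markers of cycling cells, differed by 0.32 (adjusted p = 0.07) and 0.19 (adjusted p = 0.24). In the upstream regions of the 50 cell cycle genes matched, TTTNGCGC, an E2F-type word, was present on either strand in 9 (18%), against 1.11% of all regions and 0 of the 18 sterol gene regions.

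Gadd45b (1372016_at), a growth arrest gene induced with CAR targets, had scores of 0.52, 0.87, 0.79, 0.67 and 1.44 in triadimefon livers and -0.05, -0.01, -0.03, -0.02 and -0.02 in control livers. It rose by 0.89 ± 0.11 (adjusted p = 6.8e-07) from a level near the array median. Mdm2, the p53 target that degrades p53, rose by 0.35 ± 0.06 (adjusted p = 0.00036). In the growth arrest and p53 list 3 of 25 were higher and 1 lower, against 2.6% and 8.31% of all genes. With 1 array left out 2 to 4 were higher.

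Of 30 NRF2 targets and glutathione genes 4 were higher and 1 lower. The higher were Ephx1, microsomal epoxide hydrolase (0.43 ± 0.14, adjusted p = 0.048), Gsr, glutathione reductase (0.30 ± 0.04, adjusted p = 2.4e-05), Srxn1, sulfiredoxin (0.29 ± 0.06, adjusted p = 0.0014), and Txnrd1, thioredoxin reductase (0.23, adjusted p = 0.027). Ephx1 overlapped between the groups and lost its call in 8 of the 10 fits with 1 array left out, though not after quantile normalization (0.56, adjusted p = 4.6e-07). After quantile normalization 7 of the 30 were higher and 1 lower. Nqo1, a quinone reductase, differed by 0.60 ± 0.20 (adjusted p = 0.051) with no overlap between the groups. It was called after quantile normalization (0.70, adjusted p = 0.016), also with each array left out on that scale. Hmox1, haem oxygenase, differed by 0.09 (adjusted p = 0.44). Of 21 heat shock genes 4 were higher and 0 lower, among them the co-chaperones Dnajb1 (0.33, adjusted p = 0.0019) and Chordc1 (0.30, adjusted p = 0.00021), and after quantile normalization 9 were higher and 1 lower. As deposited, 8 heat shock genes were higher without control replicate 2, and 2 without control replicate 3 or 5 or triadimefon replicate 5. Of the NRF2 list 2 were higher without control replicate 1, 3, 4 or 5 or triadimefon replicate 3 or 5, and 0 were lower without control replicate 2 or triadimefon replicate 1. Of 33 endoplasmic reticulum folding genes 4 were lower and 0 higher as deposited, against 8.31% of all genes lower. After quantile normalization 2 were lower, against 6.34% of all genes, so these counts were near the shares of all genes. Without control replicate 2 limma called 0 as deposited, with 7 at an unadjusted p under 0.05. It called 1 lower without control replicate 5 or triadimefon replicate 1, 2 without control replicate 3, and 7 lower without control replicate 4.

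Of 18 Kupffer cell markers 0 were higher and 1 lower, the lower being Cd14 (-0.34, adjusted p = 0.027, not called after quantile normalization), with 0 to 4 lower when 1 array was left out, and the list's summed score was 19.1 to 23.5 in triadimefon livers and 19.3 to 26.8 in control livers. No endothelial, stellate, bile duct, lymphocyte, neutrophil or red cell list had more than 1 called member as deposited with all arrays. After quantile normalization 2 of 20 endothelial markers were higher, against 5.89% of all genes. On that scale 2 of 22 stellate, 2 of 10 neutrophil and 2 of 15 bile duct markers were lower, against 6.34%. With 1 array left out the deposited stellate count ran from 0 to 4 lower, with 4 without control replicate 4. In bulk liver, fewer cells of a type and less RNA per cell cannot be told apart. Of 18 interferon response genes 3 were higher and 0 lower, namely Ifit1 (0.39, adjusted p = 0.007), Mx2 (0.34, adjusted p = 0.024) and Isg15 (0.32, adjusted p = 0.028). Of these only Ifit1 kept its call when each array was left out, and in all 3 the groups overlapped. The other probe set of Mx2 was not called. With 1 array left out 1 to 6 of the list were higher, with 1 without control replicate 4 or triadimefon replicate 1 or 3 and 6 without triadimefon replicate 4. After quantile normalization 5 were higher.

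**Figure D3:**
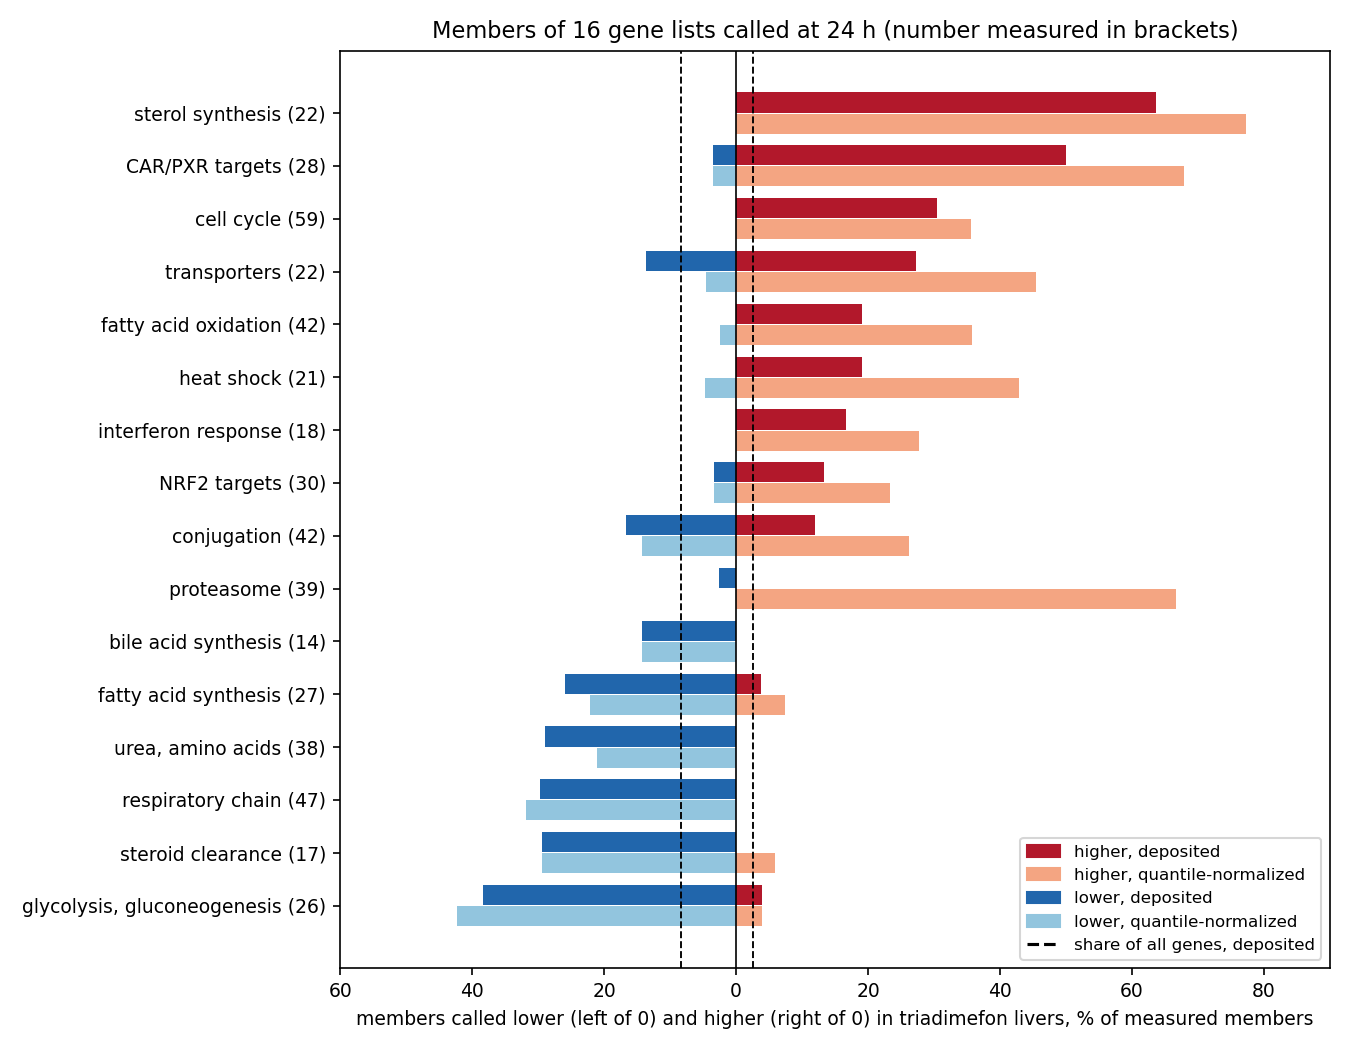
Share of the measured members of 16 gene lists called higher (right of 0, reds) or lower (left of 0, blues) in triadimefon livers at 24 h, as deposited (dark) and after quantile normalization (pale), with the shares of all genes as dashed lines (2.6% higher, 8.31% lower). The proteasome bar is empty to the right as deposited, with 0 of 39, and reaches 26 of 39 after quantile normalization.

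Against myclobutanil at the same time, a comparison that uses no control array and in which the doses differ, 100 probe sets were higher in triadimefon livers (0.322%) and 228 lower (0.734%), and by gene 63 were higher (0.443%) and 174 lower (1.22%). After quantile normalization 352 probe sets were higher (1.13%) and 765 lower (2.46%), and by gene 1.65% were higher and 4.06% lower. Of the 28 CAR and PXR genes 1 was called between the compounds. Cyp2b1/2 differed by -0.03 (95% interval -0.46 to 0.39). A fit to the compared groups alone was checked for 13 named genes called between the compounds, not for every called gene named below. Of these 13, 8 lost their call, namely Gadd45b, Cyp8b1, Mcm6, Pcna, Ifit1, Isg15, Cyp26b1 and Cry1. Gadd45b was the called member, higher under triadimefon by 0.57 ± 0.11 (adjusted p = 0.0032).

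Set directly against myclobutanil, 4 of the 22 sterol genes were called higher under triadimefon and 0 lower as deposited, and after quantile normalization 9 were higher and 0 lower. The 4 were Ebp (0.38, adjusted p = 0.005), Sc5d (0.42, adjusted p = 0.017), Hsd17b7 (0.38, adjusted p = 0.026) and Tm7sf2 (0.40, adjusted p = 0.032), enzymes of the steps after lanosterol. These 4 were not among the 13 genes checked in the fit to the compared groups alone. Both compounds share the same 5 controls, so differences from control stand side by side. Against those controls 14 of the 22 were higher with triadimefon and 2 with myclobutanil as deposited, and 17 and 7 after quantile normalization. The 2 with myclobutanil were Sqle (0.46, adjusted p = 0.0036) and Msmo1 (0.41, adjusted p = 0.018). Acss2 was higher under triadimefon by 0.59 ± 0.09 (adjusted p = 0.0013). Cyp8b1 was also higher, by 0.60 ± 0.15 (adjusted p = 0.032), since it differed from control by -1.0 with triadimefon and -1.60 with myclobutanil.

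Cell cycle genes were lower under triadimefon, with 15 of 59 called lower and 0 higher, and after quantile normalization 25 lower and 1 higher. Triadimefon replicate 2, the array with pancreatic RNA, had the lowest mean of this list among triadimefon arrays (0.11, against 0.25 to 0.44). Without that array the calls between the compounds over all probe sets went from 328 to 178. The lists were not counted against myclobutanil without it. Pcna, the replication clamp, was lower by -0.41 ± 0.07 (adjusted p = 0.002) and Mcm6 by -0.40 ± 0.08 (adjusted p = 0.005). Against control 18 of 59 were higher with triadimefon and 53 of 59 with myclobutanil, where 3.93% of all genes were higher and 6.86% lower. Tubulin genes followed, with 4 of 11 lower and 0 higher as deposited. Their mean was 0.98, 0.75, 1.02, 0.92 and 0.83 in triadimefon livers, again lowest on replicate 2. Against control 1 of the 11 was higher with triadimefon and 6 with myclobutanil. Kupffer cell markers were higher under triadimefon, with 6 of 18 called as deposited and 11 after quantile normalization, among them the lectin Clec4f (0.64 ± 0.12, adjusted p = 0.0049) and the complement subunit C1qa (0.41 ± 0.08, adjusted p = 0.0066). Against control, Clec4f differed by -0.16 with triadimefon (adjusted p = 0.5) and by -0.79 with myclobutanil (adjusted p = 2.9e-05). Interferon genes were higher under triadimefon in 7 of 18, among them Mx2 (0.47 ± 0.10, adjusted p = 0.0091). Gclc, the catalytic subunit of glutathione synthesis, was lower under triadimefon by -0.45 ± 0.08 (adjusted p = 0.0027), and Cry1 by -0.34 ± 0.08 (adjusted p = 0.017).

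**Figure D4:**
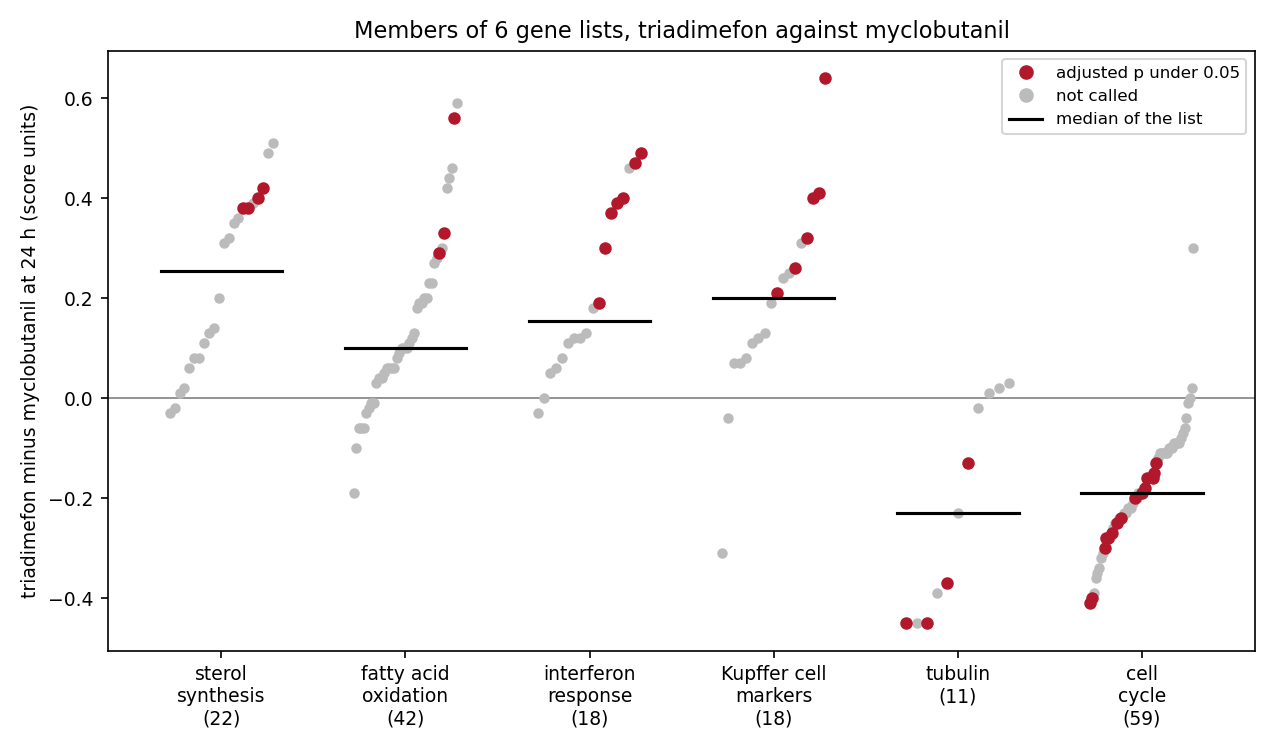
Triadimefon minus myclobutanil at 24 h, in score units as deposited, for each measured member of 6 gene lists (number in brackets), with called members in red and the list's median as a line. The medians run from 0.257 for sterol synthesis to -0.229 for tubulin, and 15 of the 59 cell cycle genes are called, all below 0.

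The time course set the 24 h difference from control beside those at 6 h and 14 days, each against controls of its own time. At 6 h 229 probe sets were higher (0.738%) and 55 lower (0.177%), and at 14 days 1207 were higher (3.89%) and 869 lower (2.8%). By gene the shares were 1.01% and 0.211% at 6 h and 5.49% and 2.74% at 14 days. The difference of effects between 24 h and 6 h called 171 probe sets higher at 24 h (0.551%) and 801 lower (2.58%). These steps share the 24 h arrays and are given side by side. Between 14 days and 24 h, 2456 were higher at 14 days (7.91%) and 1475 lower (4.75%), or 11.3% and 4.34% of genes. All 10 arrays of the 24 h comparison share the same ending of the array file name, as do 2 of 5 triadimefon and 3 of 5 control arrays at 6 h. With arrays of that ending alone 22 probe sets were called between 24 h and 6 h. In fits to the compared groups alone, 10 of 22 named genes lost their call between 24 h and 6 h: Cyp4f6, Sqle, Msmo1, Ech1, Acot4, Pklr, Nrep, Mcm4, Ndufs3 and Cry1. Between 14 days and 24 h 13 of 34 did: Ces2c, Idi1, Msmo1, Insig2, Acot4, Pklr, Gldc, Glul, Igfals, Tsc22d1, Mcm6, Hsph1 and Ppox.

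Cyp2b1/2 differed from control by 2.38 at 6 h, 2.56 at 24 h and 2.52 at 14 days, and neither step was called. Aldh1a1 differed by -0.14, 1.17 and 1.75, and its effect at 24 h exceeded that at 6 h by 1.31 (adjusted p = 0.0069). Ces2c differed by 0.23, 1.05 and 1.5, with both steps called (adjusted p = 0.00051 and 0.024). Alas1 differed by 0.81, 1.11 and 0.27, and Gadd45b by 0.48, 0.89 and 0.19, and for both the drop between 24 h and 14 days was called (adjusted p = 0.019 and 0.0025).

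Sqle differed from control by 0.26, 0.82 and 0.24 at 6 h, 24 h and 14 days, with both steps called (adjusted p = 0.027 and 0.0097). Msmo1 differed by 0.21, 0.80 and 0.28, again with both steps called (adjusted p = 0.033 and 0.03). Of the 22 sterol genes 1 was higher at 6 h, 14 at 24 h and 2 at 14 days, against 1.01%, 2.6% and 5.49% of all genes. By the test of the difference of effects, 2 of the 22 were higher at 24 h than at 6 h, against 0.647% of all genes. By the same test 5 were lower at 14 days than at 24 h, against 4.34% of all genes. After quantile normalization these counts were 8 and 13, but the shares of all genes on that scale are not given here. The gene at 6 h was Insig2 (0.56, adjusted p = 0.022).

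Cyp7a1 differed by -0.20, -1.34 and 0.59, and its effect at 14 days was above that at 24 h by 1.93 (adjusted p = 0.0013). Cyp8b1 differed by -0.70, -1.0 and 0.09, Thrsp by -0.24, -1.20 and 0.06, and Fmo1 by -0.31, -0.96 and 0.09, with the step to 14 days called in each (adjusted p = 0.0011, 0.011 and 7.1e-05). Stac3 differed by 0.00, -1.55 and -0.85, and only the step between 6 h and 24 h was called (adjusted p = 0.0091).

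Cyp4a3 differed from control by -0.63 at 6 h, 0.55 at 24 h and -0.34 at 14 days, with both steps called (adjusted p = 0.0013 and 0.0053), and Eci1 by -0.38, 0.57 and -0.17 (adjusted p = 0.0027 and 0.0079). Over the fatty acid oxidation list 8 of 42 had a higher effect at 24 h than at 6 h by this test as deposited, against 0.647% of all genes. After quantile normalization 15 did, but the share of all genes on that scale is not given here. Creld2, an endoplasmic reticulum stress gene, differed by 0.75, -0.25 and -0.24, with a step of -1.0 between 6 h and 24 h (adjusted p = 5e-05), and 8 of 33 folding genes were lower by the same test, against 3.95% of all genes. Ccnd1 differed by -0.09, 0.53 and -0.10, with both steps called (adjusted p = 0.0028 and 0.00092).

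**Figure D5:**
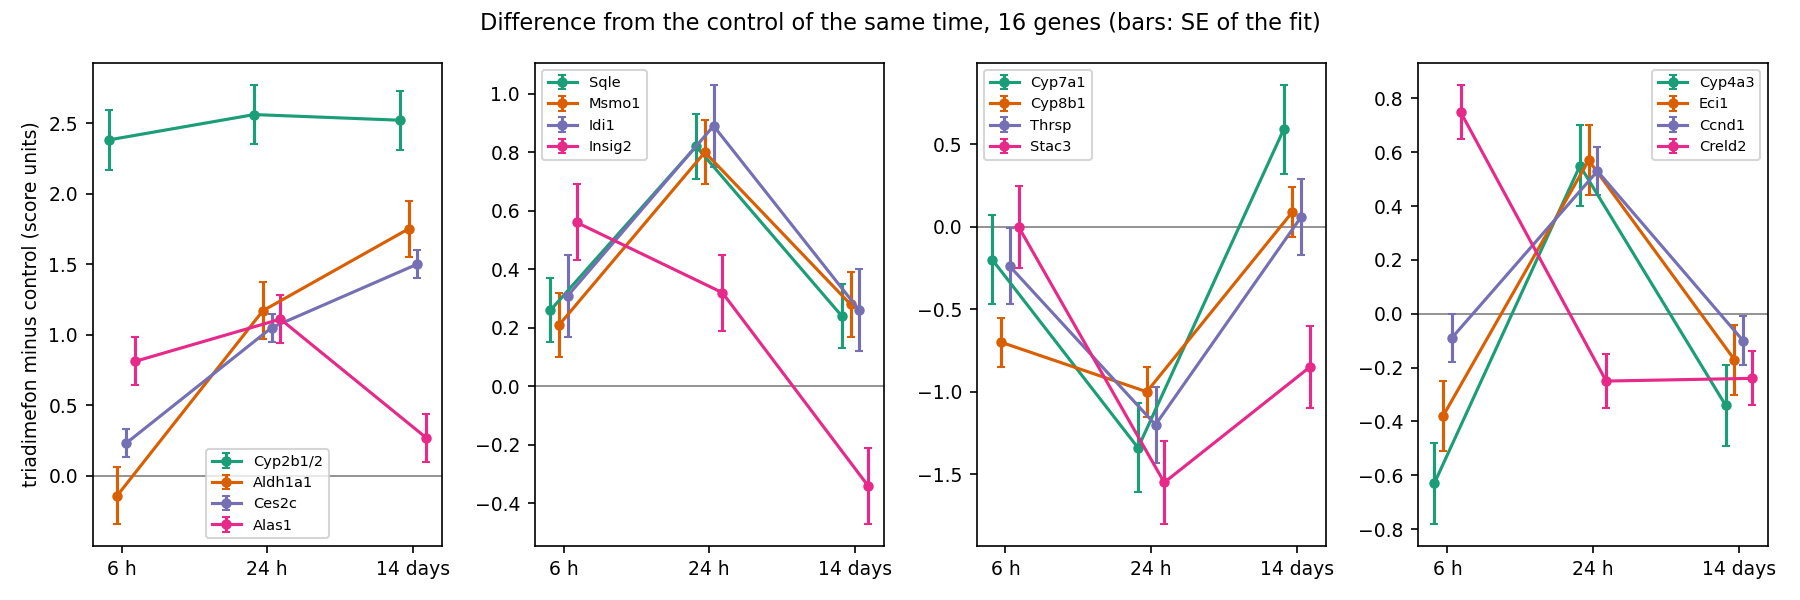
Triadimefon minus control of the same time at 6 h, 24 h and 14 days for 16 genes, in score units with the SE of the fit as bars. Cyp2b1/2 stays between 2.38 and 2.56, Sqle, Msmo1 and Idi1 are highest at 24 h, Cyp7a1, Cyp8b1, Thrsp and Stac3 are lowest at 24 h, and Creld2 is highest at 6 h.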

How the data were processed

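Liver RNA was hybridized to Affymetrix Rat 230 2.0 arrays, per the labels' protocols. The authors deposited 1 processed score per probe set and array. How they made these scores, their log base and their centring are not given in the sources used here. The scores ran from -0.984 to 5.69, with array medians between -0.011 and 0.033. The design had assumed log2 values, and the same test was kept because the scores are of log type. Arrays limit the precision through their number, 5 per group.

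Groups were taken from the array titles. limma 3.58.1 in R 4.3.3 was fitted to all 45 arrays with 1 mean per group, and p-values were adjusted by Benjamini-Hochberg over 31042 probe sets, with calls at an adjusted p under 0.05. The 57 Affymetrix control probe sets were left out. The platform annotation gives 1 gene for 20826 of the rest, more than 1 for 436 and no gene for 9780. Array-level means were tested by exact permutation. Identical columns were looked for and 0 pairs found. The fit was tested on simulated data.

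Named were the 12 highest and 12 lowest called genes whose 5 triadimefon values lay on 1 side of the control mean, up to 4 called members of largest difference per list, a panel of 51 entries, and the 5 highest and 5 lowest of each other comparison. Other genes were named after their values were seen. The lists (42, with 999 of 1135 entries matched) and the panel were chosen with earlier results of these data known. Alternatives were quantile normalization, median centring, a level filter, fits to fewer arrays, other moderation, array weights, a replicate block, stricter calls and each array left out. Leaving out arrays after quantile normalization, its combination with the block, and the lists without single arrays were added after seeing the data.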

Additional observations from a re-analysis of the deposited data

Results flagged for a closer look

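For 91 named genes, each group of 5 arrays was searched for 1 array far from the other 4 relative to the range of the group, and 25 such arrays were found in 182 groups. Chance alone flags about 1 in 20 groups. Control replicate 2 was the far array in 10 of them, each time the highest, with scores of 3.93 for Cyp3a23-3a1, 2.60 for Msmo1, 3.46 for Insig2, 3.03 for Cyp8b1, 4.38 for Thrsp, 2.75 for Srebf1, 3.51 for Stac3, 3.33 for Tsc22d1, 2.27 for Ndufs3 and 3.83 for Ephx1. Triadimefon replicate 5 was the far array at the low end for Idi1 (2.19), Sqle (1.14), Msmo1 (2.56), Lss (1.10), Thrsp (1.65), Acly (1.80), Fasn (1.21) and Nrep (0.53). It was the far array at the high end for Por (3.06), Ech1 (3.07) and Bhmt (3.56). Single arrays stood apart for Fmo1 (triadimefon replicate 1, 0.57), Isg15 (triadimefon replicate 4, 0.62), Abcg8 (control replicate 3, 0.38) and Cdk1 (control replicate 5, 0.59).

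The difference between triadimefon and control at 24 h exceeded that at 6 h, by limma's test of the difference of effects, for Aldh1a1 (1.31), Cyp4a3 (1.19), Eci1 (0.94), Ech1 (0.87), Ces2c (0.82), Acot4 (0.70), Ccnd1 (0.62), Msmo1 (0.59), Sqle (0.57), Slco1a4 (0.56), Srxn1 (0.40) and Mcm4 (0.36). It was below that at 6 h for Stac3 (-1.55), Creld2 (-1.0), Nrep (-0.92), Pklr (-0.81), Igfals (-0.71), Fmo1 (-0.65), Cry1 (-0.45), Cyp4f6 (-0.43), Ndufs3 (-0.30) and Ppox (-0.30).

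The difference at 14 days exceeded that at 24 h by the same test for Cyp7a1 (1.93), Thrsp (1.26), Cyp8b1 (1.09), Fmo1 (1.05), Hsd11b1 (0.93), Cd14 (0.78), Tsc22d1 (0.72), Srebf1 (0.71), Pklr (0.64), Glul (0.49), Ces2c (0.45), Igfals (0.43), Gldc (0.39), Sdhb (0.39), Nr3c1 (0.31), Ndufs3 (0.29), Urod (0.24) and Ppox (0.22). It was below that at 24 h for Cyp4a3 (-0.89), Alas1 (-0.84), Eci1 (-0.73), Gadd45b (-0.70), Acot4 (-0.69), Insig2 (-0.65), Idi1 (-0.64), Ccnd1 (-0.64), Sqle (-0.58), Isg15 (-0.56), Msmo1 (-0.52), Hsph1 (-0.48), Ifit1 (-0.46), Mx2 (-0.45), Mcm6 (-0.35) and Chordc1 (-0.35).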

How the results depend on the processing

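Of 71 named genes called at 24 h, 54 kept direction and call whichever of the 10 arrays was left out, and 0 reversed. In the fit to the compared groups alone 36 of these 71 lost their call. Against control, that fit called 491 probe sets (133 higher, 358 lower), an adjusted p under 0.01 called 944 (243 and 701), and a difference of at least log2 of 1.5 called 70 (31 and 39). Higher calls were 1381 after quantile normalization and 1335 with the replicate block added to it. Leaving out 1 array gave 1159 to 3233 calls, with 415 to 751 higher and 693 to 2488 lower. The lowest total came without control replicate 2, and without triadimefon replicate 1 it was 1484. After quantile normalization these ranges were 941 to 1443 higher and 964 to 1496 lower. Against myclobutanil the 328 calls became 1117 after quantile normalization, 190 in the compared groups alone, 757 with array weights, 102 at 0.01, 4 at log2 of 1.5, and 159 to 457 without 1 array. The 972 calls between 24 h and 6 h became 321 in the compared groups, 22 on arrays of file ending 11, 253 at 0.01, 46 at log2 of 1.5, and 463 to 1486 without 1 array. The 3931 calls between 14 days and 24 h became 1249 at 0.01, 68 at log2 of 1.5, and 2253 to 5079 without 1 array. The causes were not tested. Among genes not called, the sign turned after quantile normalization for Cyp2c11 (0.04), Insig1 (0.04) and C1qa (0.03), with 0.04, 0.04 and 0.03 when the replicate block was added. With 1 array left out, on deposited or quantile-normalized values, the ranges held both signs for Cyp2c11 (-0.18 to 0.07), Insig1 (-0.23 to 0.14), C1qa (-0.18 to 0.07), Clec4f (-0.26 to 0.03), Fasn (-0.31 to 0.16) and Gclc (-0.02 to 0.24). Same-numbered arrays correlated at 0.331, 0.025, 0.0505, -0.000404 and 0.00549 in their deviations. These few values cannot show whether same-numbered samples shared a step of processing, and the samples were not paired in the main fit. With the number as a block 671 were higher and 1902 lower.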
